A study of Rattus norvegicus with 6 samples.

Results

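Early-response transcription factor genes outside the AP-1 family were followed in rat adipose-derived mesenchymal stem cells. The 10 members were the EGR genes Egr1, Egr2 and Egr3, the NR4A genes Nr4a1, Nr4a2 and Nr4a3, the KLF genes Klf2, Klf4 and Klf6, and Myc. They were picked by gene symbol from the count table of the series, and all 10 were found among its 21857 rows. The cells came from Sprague Dawley rats and were cultured in custom high-glucose medium lacking branched chain amino acids (BCAA: leucine, isoleucine and valine), with 10% serum and antibiotics. One group received vehicle for 12 h and the other 3.432 mM BCAA for 12 h, and both groups also received 100 µM hydrogen peroxide, an oxidant. Each group had 3 libraries. The sources used here do not give the proportions of the 3 amino acids, the vehicle, or whether replicates were separate animals or cultures. The p-values below therefore measure only how far these libraries differ, which may be technical.

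Immediate early genes are transcribed within minutes of serum, growth factors, calcium or stress, without new protein synthesis, because the factors that switch them on are already present and only need to be phosphorylated or moved to the nucleus. Their mRNAs are short-lived, and a level read many hours after a stimulus is a balance of ongoing synthesis and rapid decay rather than the first peak. EGR proteins bind GC-rich DNA through zinc fingers, NR4A proteins are orphan nuclear receptors controlled mainly by their own abundance, KLF proteins bind GC and CACCC boxes, and MYC binds E boxes together with MAX to drive growth genes.

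Promoter sequence was available for 6 of the 10 members in RefSeq (build GRCr8), as windows of 250 bases before and 50 bases after the annotated start. Egr3, Nr4a3, Klf2 and Myc were not matched. The 250 bases before the start are shown for Egr2, Nr4a1 and Klf6, 1 gene each of the EGR, NR4A and KLF families, because they carry the classic response elements of early genes in different numbers. Capitals mark any match, on either strand, to the CArG box (the element bound by serum response factor), to the core TGACG of the cyclic AMP response element (read on the other strand as CGTCA), to the EGR site GCGNGGGCG or to the E box CACGTG.
Egr2, chr20:21054442-21054691, minus strand: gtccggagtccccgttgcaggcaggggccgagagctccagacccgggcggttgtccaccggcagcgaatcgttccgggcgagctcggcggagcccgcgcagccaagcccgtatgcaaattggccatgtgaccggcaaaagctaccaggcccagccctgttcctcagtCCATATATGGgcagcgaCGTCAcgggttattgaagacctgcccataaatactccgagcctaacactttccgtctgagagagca
Nr4a1, chr7:134259888-134260137, plus strand: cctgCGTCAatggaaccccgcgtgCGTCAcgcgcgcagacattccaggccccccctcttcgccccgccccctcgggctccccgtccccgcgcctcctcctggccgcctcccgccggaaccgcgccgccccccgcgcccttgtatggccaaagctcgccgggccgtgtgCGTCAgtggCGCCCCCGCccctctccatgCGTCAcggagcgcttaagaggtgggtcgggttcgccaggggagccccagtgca
Klf6, chr17:69458479-69458728, minus strand: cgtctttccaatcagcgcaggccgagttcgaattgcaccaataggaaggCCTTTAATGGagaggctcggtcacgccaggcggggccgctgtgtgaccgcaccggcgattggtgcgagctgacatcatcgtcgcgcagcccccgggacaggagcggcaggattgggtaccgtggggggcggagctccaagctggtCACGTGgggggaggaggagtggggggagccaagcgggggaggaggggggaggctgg

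The Egr2 window held 1 CArG box (ccatatatgg), starting 83 bases before the start, and 1 TGACG core. Egr1 held 2 CArG boxes, ccatattagg and ccatatatgg, starting 105 and 83 bases before the start, and 2 TGACG cores, so the CArG box nearest the start had the same letters and the same distance in both genes. Klf6 held 1 CArG box (cctttaatgg) at 201 bases and 1 E box at 56 bases before the start. Nr4a1 had no CArG box but held 4 TGACG cores and 1 EGR site, and 1 of the cores (82 bases before the start) and the EGR site (73 bases) lay side by side. Nr4a2 held 1 TGACG core, 8 bases before its annotated start. That start was not checked and may lie inside the transcript, so the match may not describe the Nr4a2 promoter. The annotated start of Klf4 may lie inside its transcript, so matches in its window are not given. Over 33465 RefSeq promoter windows of the same length, a CArG box was found in 1.64%, TGACG in 21.2%, the EGR site in 4.98% and CACGTG in 6.42%. The full element TGACGTCA (1.83% of windows), which contains the TGACG core, the NR4A element AAAGGTCA (1.43%) and TATAAA (14.2%) matched none of the 5 members read. These matches describe letters in the windows, and no binding was measured.

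Library totals ran from 12725344 to 15739731 counts. Vehicle replicate 1 stood apart from the other vehicle libraries: its chi-square per degree of freedom against them was 16.9 and 15.1, while those 2 gave 2.65 against each other. Against the BCAA libraries it gave 9.38 to 18.1, and the other vehicle libraries gave 6.30 to 12.4. Its mitochondrially encoded genes took 6.58% of counts, against 4.92% and 4.91% in the other vehicle libraries and 5.60% to 6.24% with BCAA. Stromal markers, among them Col1a1, Dcn, Thy1 and Nt5e, were detected for 9 of the 9 symbols in the table. Vim was lower with BCAA (1122 to 1205 CPM) than with vehicle (1340 to 1446 CPM), and the groups overlapped for the other stromal markers. Col1a1 was at 5451 CPM in vehicle replicate 1, against 8481 and 8433 CPM in vehicle replicates 2 and 3. Markers of endothelial cells, in which Klf2 and Klf4 are typically high, summed to 10.3 to 11.2 CPM (counts scaled to a fixed library size) with vehicle and 11.8 to 12.8 CPM with BCAA. Of 7 such markers, Cdh5 and Emcn had 7 and 1 counts over the 6 libraries and Kdr and Vwf 27 and 32, while Tek, Esam and Tie1 had 315, 257 and 352 and made up most of the sum. Esam was at 2.29 to 2.66 CPM with vehicle and 3.04 to 4.37 CPM with BCAA. The groups overlapped for Tek (3.13 to 5.01 CPM with vehicle, 2.60 to 4.07 CPM with BCAA). They also overlapped for Tie1 (3.43 to 3.84 CPM with vehicle, 3.76 to 5.40 CPM with BCAA). Leukocyte markers, including the pan-leukocyte gene Ptprc and the macrophage receptor gene Csf1r, summed to 184 to 191 CPM with vehicle and 180 to 188 CPM with BCAA, with Cd3e at 0 in every library. Most of that sum was Cd14, at 105 to 111 CPM with vehicle and 96.7 to 102 CPM with BCAA. The groups overlapped for Ptprc, Csf1r, Cd68 and Adgre1. Smooth muscle and pericyte markers summed to 887 to 953 CPM with vehicle and 610 to 636 CPM with BCAA. Most of that sum was Tagln, at 758 to 820 CPM with vehicle and 507 to 534 CPM with BCAA. Acta2, Cnn1, Myh11 and Des were also lower in every BCAA library than in every vehicle library. The groups overlapped for Cspg4, and Rgs5 had 3 counts over the 6 libraries. Adipocyte and epithelial markers each summed to under 1.5 CPM per library. The part of these cells in the values below was not tested, and in bulk RNA fewer cells of a type and less RNA per cell cannot be told apart.

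None of the 10 early genes passed an adjusted p of 0.05 between BCAA and vehicle (edgeR's quasi-likelihood test, Benjamini-Hochberg over all genes), where 0.228% of the 12298 genes tested did. Their fold changes had different signs, 4 above 0 and 6 below 0, and both signs occurred in each of the EGR, NR4A and KLF families. At an unadjusted p under 0.05 there were 5 members, Egr1 and Klf6 with higher values and Nr4a3, Klf2 and Klf4 with lower values with BCAA, where 11.8% of all genes reached that level. The 3 BCAA and 3 vehicle libraries did not overlap for 4 members, Egr1 and Klf6 above (9.29% of all genes lay above) and Nr4a3 and Myc below (8.76% lay below). The median log2 fold change was -0.14 over the 10 members and 0.0035 over all genes tested. The median of the members was -0.19 without vehicle replicate 1 and -0.09 without vehicle replicate 2. DESeq2 called 1 member, Nr4a3, where it called 1.75% of the genes to which it gave an adjusted p. Without vehicle replicate 1 edgeR called 3 members, Egr1 higher and Nr4a1 and Nr4a3 lower, where 3.93% of genes were called. Leaving out any one of the other 5 libraries called no member.

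**Figure D1:**
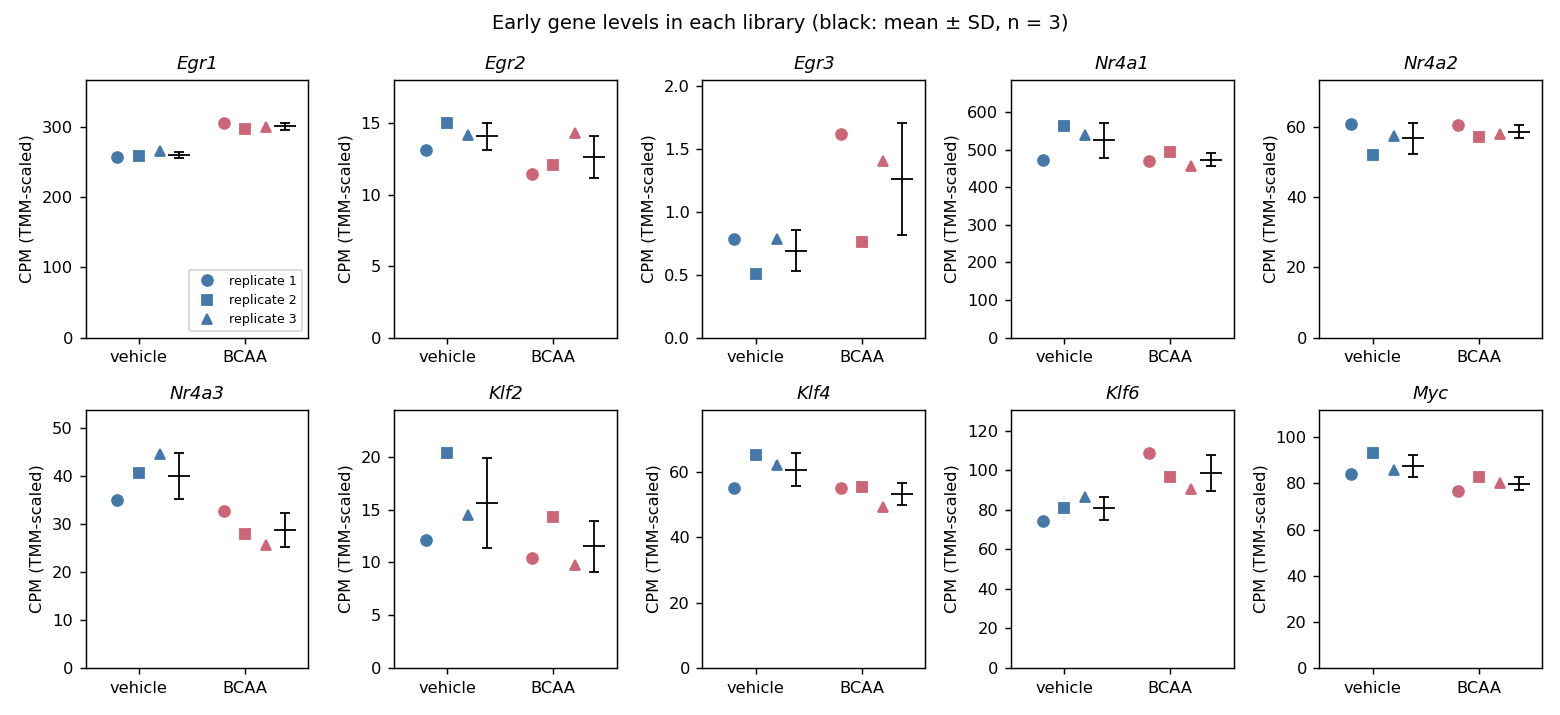
TMM-scaled CPM (vertical axis, from 0) of the 10 early genes in each vehicle library (blue) and BCAA library (red), with point shape for the replicate number and black bars for mean ± SD of 3 libraries. The groups are apart for Egr1 and Klf6 (BCAA above) and for Nr4a3 and Myc (BCAA below), and overlap for the other 6 genes.

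Egr1 encodes the zinc finger factor that is the prototype of the serum response. Its level was 257, 258 and 265 CPM in vehicle replicates 1 to 3 and 306, 297 and 301 CPM in BCAA replicates 1 to 3. Every BCAA library was higher than every vehicle library, and the libraries of a group lay very close together. The coefficient of variation between libraries was 1.65% with vehicle and 1.57% with BCAA, against 1.58% from counting alone at this gene's mean count. The mean was 260 ± 4.31 CPM with vehicle and 301 ± 4.73 CPM with BCAA (SD over 3 libraries each), a 1.16-fold higher level. Its log2 fold change was 0.21 (SE 0.06, 95% interval 0.08 to 0.34), with an edgeR adjusted p of 0.16. Without vehicle replicate 1 the log2 fold change was 0.20 and the adjusted p 0.029.

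Egr2, a relative known for its roles in myelination and in macrophages, did not share that pattern. It was at 13.1, 15.0 and 14.2 CPM with vehicle and at 11.5, 12.1 and 14.3 CPM with BCAA, so the groups overlapped. Its log2 fold change was -0.16 (SE 0.13, 95% interval -0.44 to 0.11; edgeR adjusted p = 0.66). It was -0.10 without BCAA replicate 1 and -0.26 without BCAA replicate 3. Egr3, which is usually induced by EGR1-activating stimuli, was near the limit of detection, with 11, 8 and 10 counts in the vehicle libraries and 24, 12 and 18 counts in the BCAA libraries. The filter on low counts asked for 3 libraries of either group at its minimum. All 3 BCAA libraries and 2 vehicle libraries reached it for Egr3, so the vehicle libraries alone would not have admitted the gene. The level of Egr3 was 0.693 ± 0.16 CPM with vehicle and 1.26 ± 0.448 CPM with BCAA (SD, n = 3 each), and BCAA replicate 2 (0.760 CPM) lay within the vehicle range. The log2 fold change of 0.86 had a 95% interval from -0.04 to 1.76 (edgeR adjusted p = 0.44), an interval that includes 0.

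Nr4a1 (Nur77) encodes a nuclear receptor that many stimuli induce and that is also linked to apoptosis and steroidogenesis. It was at 472, 562 and 539 CPM with vehicle and 470, 493 and 457 CPM with BCAA. Vehicle replicate 1 lay among the BCAA libraries, and the other vehicle libraries lay above all of them. The log2 fold change was -0.15 (SE 0.07, 95% interval -0.30 to 0.01; edgeR adjusted p = 0.44). Without vehicle replicate 1 it was -0.22 with an adjusted p of 0.019, and without vehicle replicate 2 it was -0.10. Nr4a2 (Nurr1), best known from dopaminergic neurons, was at 60.9, 52.1 and 57.3 CPM with vehicle and 60.6, 57.1 and 58.0 CPM with BCAA. These groups overlapped throughout, and the log2 fold change was 0.05 (95% interval -0.13 to 0.22; edgeR adjusted p = 0.86).

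Nr4a3 (Nor1), the third receptor of the family, had the smallest p of the 10 members and ranked 110 among all genes tested. It was at 35.0, 40.5 and 44.5 CPM with vehicle and 32.7, 27.8 and 25.7 CPM with BCAA, so every BCAA library was lower than every vehicle library, with replicate 1 of both groups next to the gap. The mean was 40.0 ± 4.76 CPM with vehicle and 28.7 ± 3.58 CPM with BCAA (SD over 3 libraries each), a 1.39-fold lower level. BCAA minus vehicle was -0.48 on the log2 scale (SE 0.11, 95% interval -0.72 to -0.23) and the edgeR adjusted p was 0.10. The call depended on the setting: the adjusted p was 0.019 with DESeq2, 0.018 in edgeR without the filter on low counts and 0.0023 in edgeR without vehicle replicate 1, and it ranged from 0.18 to 0.37 when any other single library was left out.

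**Figure D2:**
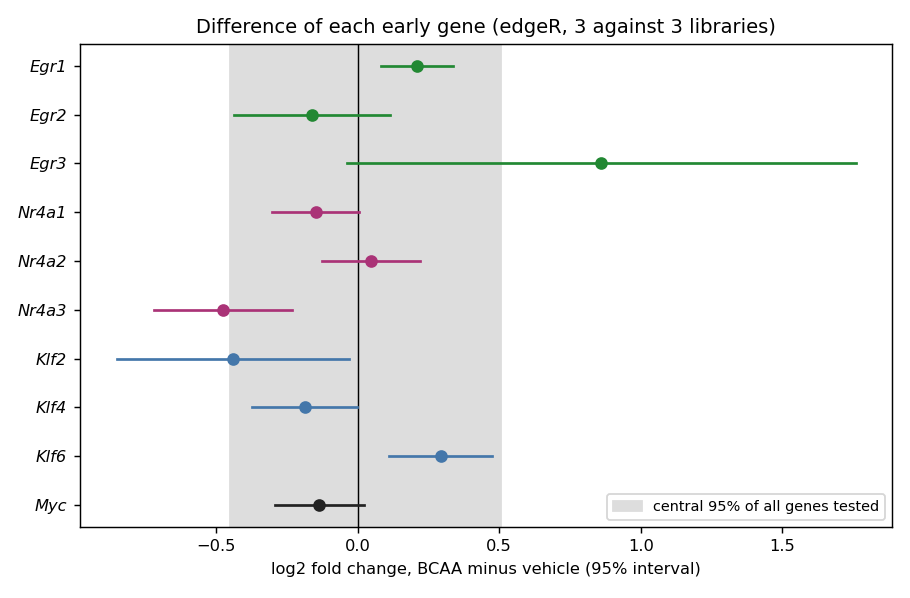
Log2 fold change of each early gene, BCAA minus vehicle (points), with 95% intervals (lines) from edgeR on 3 against 3 libraries; colours mark the EGR, NR4A, KLF and Myc genes and the grey band holds the central 95% of all genes tested. The intervals of Egr1 (0.08 to 0.34) and Klf6 (0.11 to 0.47) lie above 0 and those of Nr4a3 (-0.72 to -0.23), Klf2 (-0.85 to -0.03) and Klf4 (-0.37 to -0.0032) lie below it, before adjustment for the number of genes.

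Klf6, a broadly expressed factor that responds to injury and growth signals, was at 74.5, 80.9 and 86.4 CPM with vehicle and 109, 96.7 and 90.6 CPM with BCAA. The groups did not overlap, although vehicle replicate 3 and BCAA replicate 3 were close. The mean was 80.6 ± 5.99 CPM with vehicle and 98.7 ± 9.17 CPM with BCAA (SD over 3 libraries each), a 1.22-fold higher level. The difference was 0.29 on the log2 scale (SE 0.08, 95% interval 0.11 to 0.47; edgeR adjusted p = 0.17).

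Klf2 and Klf4 are known as flow-responsive factors of endothelium, and KLF4 also represses contractile genes in smooth muscle cells and maintains pluripotency. Klf2 was at 12.1, 20.4 and 14.5 CPM with vehicle and 10.5, 14.3 and 9.78 CPM with BCAA. Replicate 2 was the highest library in each group, and the groups overlapped. The coefficient of variation was 27.2% with vehicle and 21.2% with BCAA against 7.13% from counting, so the libraries differed in Klf2 by more than their depth gives. The log2 fold change was -0.44 (SE 0.19, 95% interval -0.85 to -0.03; edgeR adjusted p = 0.39), and it was -0.20 without vehicle replicate 2. Klf4 was at 55.1, 65.1 and 62.1 CPM with vehicle and 55.1, 55.4 and 49.5 CPM with BCAA. Vehicle replicate 1 was again within the BCAA range, and the log2 fold change was -0.19 (SE 0.09, 95% interval -0.37 to -0.0032; edgeR adjusted p = 0.42).

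Myc, the growth-promoting factor, was at 84.1, 93.2 and 85.7 CPM with vehicle and 76.9, 82.6 and 80.0 CPM with BCAA. The groups did not overlap, but the gap between BCAA replicate 2 and vehicle replicate 1 was narrow. The mean was 87.7 ± 4.90 CPM with vehicle and 79.8 ± 2.87 CPM with BCAA (SD, n = 3 each). This gave a log2 fold change of -0.14 (SE 0.07, 95% interval -0.29 to 0.02; edgeR adjusted p = 0.49), and it was -0.09 without vehicle replicate 2.

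Ratios of counts between 2 genes of 1 library do not depend on how libraries are scaled. Pairs within and across the families were chosen after the values were seen and carry no test. Since counts are not per length, a ratio is compared only between libraries. Egr1 to Nr4a1 was 0.546, 0.460 and 0.492 with vehicle and 0.652, 0.602 and 0.658 with BCAA, so it was higher in every BCAA library. Egr1 to Egr2 was 19.6, 17.3 and 18.7 with vehicle and 26.7, 24.5 and 21.0 with BCAA. Klf6 to Klf4 was 1.35, 1.24 and 1.39 with vehicle and 1.97, 1.75 and 1.83 with BCAA, the widest gap between groups, relative to the levels, among these 3 ratios. Nr4a3 to Nr4a2 was 0.575, 0.777 and 0.777 with vehicle and 0.539, 0.487 and 0.443 with BCAA. The groups were apart in this ratio too, with vehicle replicate 1 close to the BCAA libraries. Each pair joined genes whose log2 fold changes had opposite signs, so the direction of each gap follows from the choice of the pair and adds no support.

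**Figure D3:**
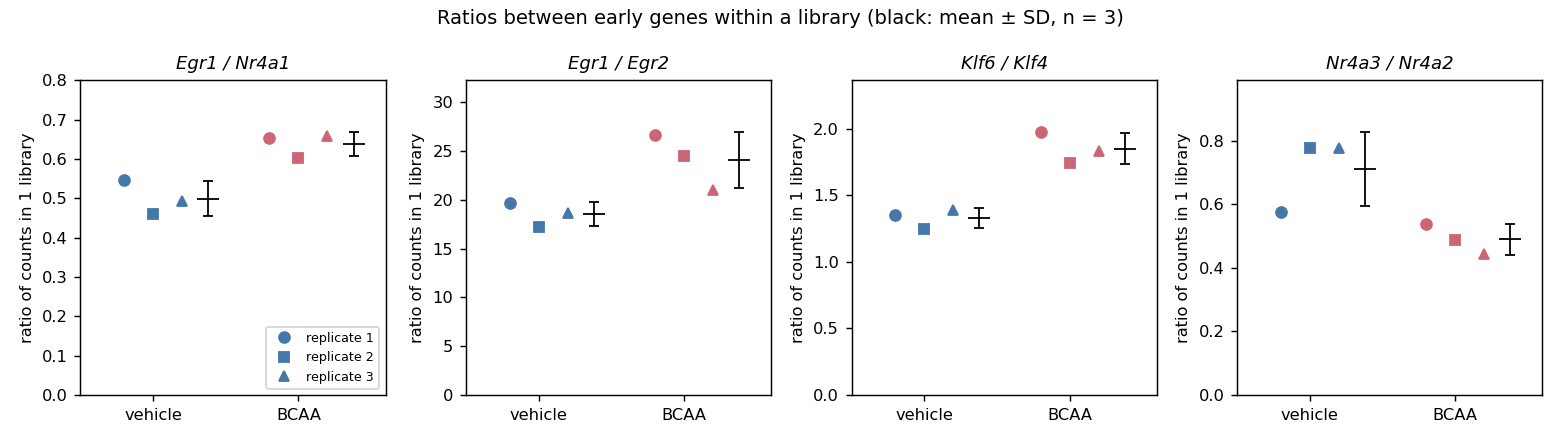
Ratios of counts within each library (vertical axes, from 0) for Egr1 to Nr4a1, Egr1 to Egr2, Klf6 to Klf4 and Nr4a3 to Nr4a2, with vehicle libraries in blue, BCAA libraries in red and black bars for mean ± SD of 3 libraries. The groups do not overlap in any of the 4 panels, with Nr4a3 to Nr4a2 lower and the other 3 higher with BCAA.

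Linked genes were followed in 7 lists that held 112 symbols, of which 109 were found in the table and 102 tested. Of those, edgeR called 2, where it called 0.228% of all genes. Both were lower with BCAA and both were among 21 other immediate early genes tested. DESeq2 called 6 listed genes, where it called 1.75% of the genes to which it gave an adjusted p. Among the 6 were 2 other immediate early genes higher and 2 lower. Ctgf (Ccn2), a matricellular growth factor, was at 700, 732 and 752 CPM with vehicle and 416, 452 and 459 CPM with BCAA, with a log2 fold change of -0.72 (SE 0.06; edgeR adjusted p = 0.00014). Cyr61 (Ccn1), its relative, was at 411, 383 and 412 CPM with vehicle and 287, 288 and 304 CPM with BCAA, with a log2 fold change of -0.46 (SE 0.06; edgeR adjusted p = 0.0059). In both genes every BCAA library lay below every vehicle library, while the list as a whole had 12 members above 0 and 9 below 0 and a median of 0.04 (0.02 without vehicle replicate 1 or vehicle replicate 3, 0.06 without scaling factors). The Notch target Hes1 had the third smallest p in this list, at 16.0, 17.8 and 15.5 CPM with vehicle and 22.5, 24.8 and 23.5 CPM with BCAA, and did not pass (log2 fold change 0.52, SE 0.11; edgeR adjusted p = 0.060).

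Among 11 other KLF genes tested edgeR and DESeq2 called none, and 8 were above 0 and 3 below 0 (median 0.13). Without vehicle replicate 1 edgeR called 1 of them higher, where it called 3.93% of all genes in either direction. The median was 0.06 without vehicle replicate 1 and 0.08 without BCAA replicate 1. At an unadjusted p under 0.05 there were 3, all with higher values with BCAA, where 11.8% of all genes reached that level in either direction. Klf12 was at 4.08, 5.08 and 5.09 CPM with vehicle and 9.04, 6.53 and 5.87 CPM with BCAA (log2 fold change 0.59, SE 0.20; edgeR adjusted p = 0.26). Klf11, a repressor first described as inducible by TGF-beta, and Klf3, a repressor that acts through CtBP, had smaller differences, with log2 fold changes at 0.31 (SE 0.11) and 0.20 (SE 0.08). The groups did not overlap for these 3 genes, as for the 9.29% of all genes that lay above.

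In the network of MAX and MLX partners of MYC, 7 of 9 genes tested were above 0, and edgeR and DESeq2 called none (median 0.19). An unadjusted edgeR p under 0.05 was reached by 3, where 11.8% of all genes reached it. Leaving out BCAA replicate 1 brought the median to 0.08. Leaving out vehicle replicate 1 gave 1 gene called higher by edgeR, where 3.93% of all genes were called in either direction. The 3 with the smallest p were genes for MAX-binding proteins that oppose MYC. Mxi1 was at 69.5, 58.7 and 57.8 CPM with vehicle and 75.3, 68.7 and 76.1 CPM with BCAA (log2 fold change 0.24, SE 0.09), with an overlap between vehicle replicate 1 and BCAA replicate 2. Mga had a log2 fold change of 0.32 (SE 0.12), carried mainly by BCAA replicate 1 (90.7 CPM against 61.5 and 64.7 CPM in the other BCAA libraries and 56.5 to 60.9 CPM with vehicle). Mxd1 had a log2 fold change of 0.19 (SE 0.09). Of 20 genes that MYC is known to activate, 16 were below 0 and 4 above 0 (median -0.09), and edgeR called none. At an unadjusted edgeR p under 0.05 there were 4, where 11.8% of all genes reached that level. DESeq2 called 1 of the 20 higher, where it called 1.75% of the genes to which it gave an adjusted p. With no low-count filter edgeR also called 1 higher, where it called 124 of 16570 genes. Without vehicle replicate 1 edgeR called 1 higher and 1 lower, where it called 3.93% of genes. That median was -0.01 without vehicle replicate 1 and -0.06 without scaling factors. The smallest p was that of Tfrc, the transferrin receptor, at 141, 116 and 122 CPM with vehicle and 171, 152 and 166 CPM with BCAA (log2 fold change 0.37, SE 0.08; edgeR adjusted p = 0.071). Nme1, a nucleoside diphosphate kinase, and Fbl, the nucleolar methyltransferase fibrillarin, followed with -0.19 (SE 0.08) and -0.25 (SE 0.11).

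Genes for partners and corepressors of EGR and NR4A factors showed the least spread, with log2 fold changes from -0.11 to 0.15 over 10 genes tested and no member called or at an unadjusted p under 0.05 (edgeR). Nab2, the corepressor that EGR1 itself induces, was outside the 3 of smallest p and is named after its values were seen: it was at 123, 145 and 138 CPM with vehicle and 136, 154 and 138 CPM with BCAA (log2 fold change 0.08, SE 0.08; edgeR adjusted p = 0.75). Those 3 were the corepressor gene Ncor1 (0.15, SE 0.09), the retinoid receptor gene Rxrb (0.12, SE 0.11) and the zinc finger gene Wt1 (0.10, SE 0.09). Among 14 genes that EGR1 is known to activate 7 were above 0 and 7 below 0 (median -0.04), edgeR called none, and 6 were at an unadjusted p under 0.05, as were 11.8% of all genes. DESeq2 called 1 of the 14 lower, where it called 1.75% of the genes to which it gave an adjusted p. With no low-count filter edgeR also called 1 lower, where it called 124 of 16570 genes. Without vehicle replicate 1 edgeR called 1 higher and 3 lower, where it called 3.93% of genes. The sign of the median was not stable: it was 0.04 without vehicle replicate 1, 0.0033 without vehicle replicate 2 and 0.02 without BCAA replicate 3, and it lay between -0.09 and -0.0056 under the other alternatives. The thrombospondin gene Thbs1 was at 2809, 3079 and 3337 CPM with vehicle and 2553, 2376 and 2267 CPM with BCAA (log2 fold change -0.36, SE 0.07; edgeR adjusted p = 0.062). The osteopontin gene Spp1 and the adhesion receptor gene Icam1 had 0.26 (SE 0.07) and -0.21 (SE 0.06). Of the signal-regulated factors that act upstream of early genes 12 of 17 tested were above 0, and edgeR and DESeq2 called none (median 0.05). An unadjusted edgeR p under 0.05 was reached by 5 of the 17, where 11.8% of all genes reached it. The median was 0.10 without vehicle replicate 2, 0.08 without BCAA replicate 3 and 0.08 without scaling factors. Without vehicle replicate 1 edgeR called 1 of the 17 lower, where it called 3.93% of all genes in either direction. The forkhead gene Foxo3, the SRF cofactor gene Mkl1 (Mrtfa) and the CREB relative Atf1 were at 0.37 (SE 0.14), 0.24 (SE 0.10) and 0.17 (SE 0.07) on the log2 fold change scale, with edgeR adjusted p from 0.32 to 0.38. Srf itself, the factor that binds the CArG box and outside those 3, had -0.25 (SE 0.11; edgeR adjusted p = 0.42), with overlapping groups.

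**Figure D4:**
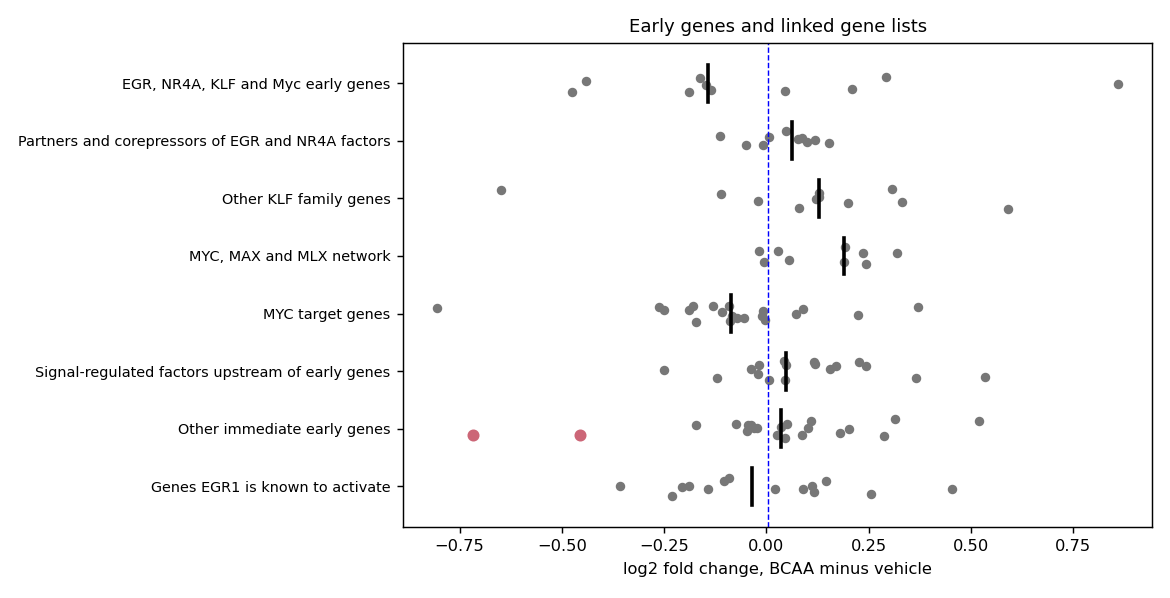
Log2 fold change, BCAA minus vehicle (horizontal axis), of each tested gene of the early genes and of 7 linked lists, with black bars for list medians, red points for genes with an adjusted p under 0.05 (edgeR) and a dashed line at the median of all genes tested. Only Ctgf and Cyr61, both among other immediate early genes, are red, and the 10 early genes lie on both sides of 0.

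Genes with the library pattern most like that of a member were taken by the smallest root mean square difference of log2 (CPM + 1), centred on each gene, over the 6 libraries, among 9234 named genes with at least 5 CPM. For Egr1 they were Wsb1 (0.011), Sik2 (0.014) and Rcbtb1 (0.018), and for Klf6 Lrba (0.023), Mto1 (0.036) and Inip (0.036). For Nr4a3 they were Zbtb47 (0.058), Inhbb (0.076) and Col14a1 (0.076), and for Myc Dzip1l (0.016), Puf60 (0.016) and Copz2 (0.018). None of these 12 genes passed the threshold in edgeR, the lowest adjusted p being 0.054 for Inhbb, which encodes the activin beta B chain. The members' own SD of log2 (CPM + 1) was 0.12 for Egr1, 0.19 for Klf6, 0.30 for Nr4a3 and 0.094 for Myc. Over 6 libraries and 9234 candidates close patterns can occur without any link between genes, and no link was tested.

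**Figure D5:**
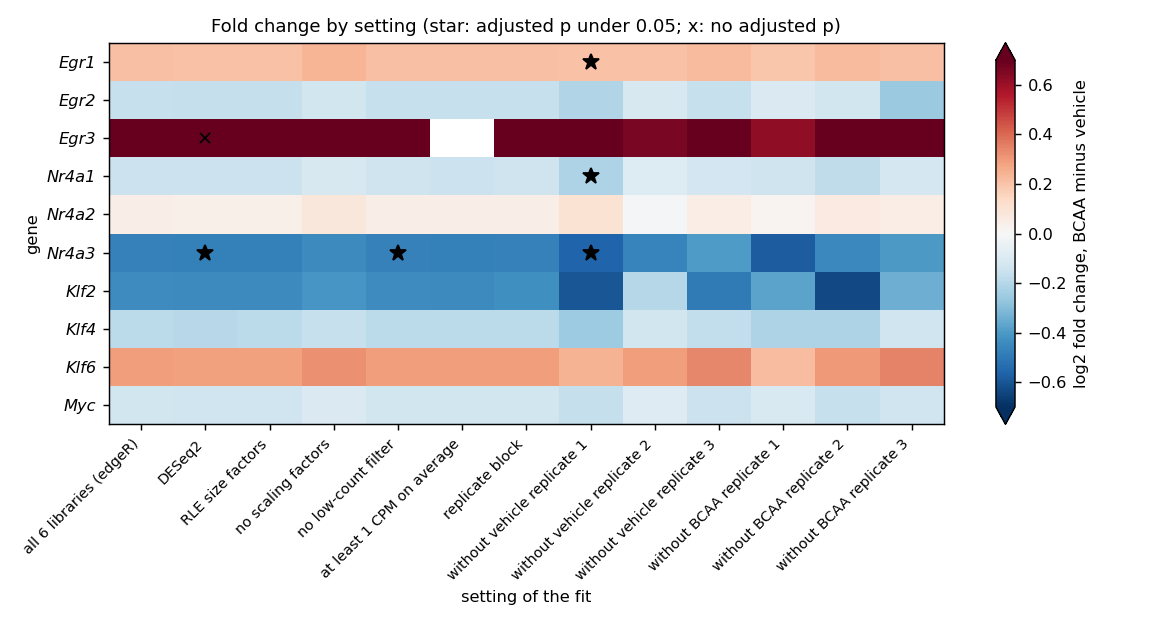
Log2 fold change, BCAA minus vehicle (colour), of the 10 early genes (rows) under 13 settings of the fit (columns), with a star where the adjusted p was under 0.05, an x where DESeq2 gave none and a blank cell where Egr3 was not tested. Stars stand in the columns without vehicle replicate 1 (Egr1, Nr4a1 and Nr4a3), DESeq2 and no low-count filter (Nr4a3 in each), and only Nr4a2 changes colour across 0, without vehicle replicate 2.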

How the data were processed

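Per the labels' protocols, TRIzol was used to isolate RNA and a NEBNext Ultra kit to prepare libraries from 3 µg of it. The authors deposited raw read counts per gene symbol, not normalized and not pooled, for 3 vehicle and 3 BCAA libraries. The submitters' processing notes list rn6 as the build and Trimmomatic, FastQC, STAR and HTSeq as tools. The sources used here do not give versions, annotation or strand setting, so a gene's reads cannot be separated from those of an overlapping or antisense gene. Columns were matched to libraries by title.

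All 6 libraries were fitted with edgeR 4.0.16 (R 4.3.3), by the quasi-likelihood test with robust estimation, TMM scaling and the group as the only term. The filterByExpr defaults (minimum count 10, minimum total 15) left 12298 genes with 99.9% of counts. P-values were Benjamini-Hochberg adjusted over all of them and called under 0.05. The SE is the log2 fold change over the square root of F. The method was tested on simulated data. Pairs of libraries had a chi-square per degree of freedom of 2.65 or more, so none was a second copy. Alternatives were DESeq2 1.42.0, other scaling and filters, a replicate block and leaving out each library.

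The members and lists were chosen with earlier results of these data known. Named are all members, the called genes or otherwise the 3 with the smallest p of each list, and the 3 genes most like each member of at least 5 CPM whose groups did not overlap. For the list with 2 called genes, the next by p was added after its values were seen. Older symbols were matched through RefSeq. Protein sequences were not used here.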

Additional observations from a re-analysis of the deposited data

How the results depend on the processing

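Of the 12 alternatives tried for each member, 1 turned a direction: the log2 fold change of Nr4a2 was -0.014 without vehicle replicate 2, and over the libraries left out it ran from -0.014 to 0.10. The count of genes called, 28 with all libraries, was 144 with DESeq2, 124 with no low-count filter and 6 with the replicate block, and ran from 7 to 491 with 1 library left out, the highest without vehicle replicate 1. The count of members called, 0, was 1 with DESeq2 and 1 with no low-count filter (Nr4a3, log2 fold change -0.48 and -0.47), and ran from 0 to 3 with 1 library left out. The count of listed genes called, 2, was 6 with DESeq2, 5 with no low-count filter and 1 with the replicate block, and ran from 1 to 13 with 1 library left out. With 1 library left out the log2 fold change ran from 0.19 to 0.22 for Egr1, from -0.22 to -0.10 for Nr4a1 and from -0.58 to -0.39 for Nr4a3. With the replicate block no member was called. The block took the SE of Klf2 from 0.19 to 0.13 and that of Nr4a3 from 0.11 to 0.13. Libraries of equal number were not taken as pairs in the main fit. Their deviations from the group means correlated at -0.08, 0.17 and -0.20 across genes, and only replicate 2 correlated best with its own number. Library totals were nonetheless close by number: 14484051 (vehicle) and 14482260 (BCAA) for replicate 1. They were 15739731 and 15654060 for replicate 2, and 12725344 and 12802663 for replicate 3. The labels do not say what a number shares, so the pairing was not settled. Counts of 8 to 24 limit Egr3, which was not tested on genes of at least 1 CPM and had no adjusted p from DESeq2.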
